A study of Mus musculus with 24 samples.

Results

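Saa1, Saa3, Lcn2, Hp, Serpina3n, Cp and Pla2g2d were followed in the left gastrocnemius, a calf muscle, of mice with and without a model of muscle pain. These 7 genes were chosen by name among the 54532 genes of the deposited count files, and all 7 were found. The choice was made with the levels of these libraries known, so the members' levels and differences are given as a description. Calls from the fit over all genes are given for them as counts beside the share of all genes called. Some of the members concerned are named, and nothing is read from those calls. Per length of gene, Saa3 had the highest mean level of the 7 in sedentary females with the pain model, and it was at or near 0 in male controls. Saa1, Lcn2, Hp and Serpina3n were higher on average after the pain model in both sexes. Cp and Pla2g2d differed from control by at most 0.74 in size on the log2 scale. The Hp difference in active females, 0.64 ± 0.71 (SE), was also within that size.

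The series holds 24 libraries, 4 in each of 6 groups, from wild-type (WT) C57/BL6 mice, all collected at 24 h per the labels. Sedentary control females and males had 2 injections of 20 µl saline of pH 7.2 into the muscle, 5 days apart. In the sedentary pain groups, both injections had a pH of 5.0, and 6 min of electrically stimulated contraction came right before the second. The active pain groups of each sex had running wheels for 8 weeks and then went through the same model. Controls had no contraction, so acid and contraction cannot be told apart. No group ran without the pain model, so running was compared only within it, as active against sedentary pain. The labels number the libraries 1 to 4 within a group without saying that each is a separate animal, and the spread between them may be partly technical.

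The acute-phase response is the change in secreted proteins that follows injury or infection. Interleukin-6, interleukin-1 and tumour necrosis factor act through STAT3, NF-κB and C/EBP transcription factors to raise transcription of acute-phase genes, above all in liver. Saa1 encodes a serum amyloid A, an apolipoprotein of high-density lipoprotein made mostly by hepatocytes, while its relative Saa3 is made mainly outside the liver, by macrophages and adipocytes among others. Lcn2 encodes lipocalin-2, which binds bacterial siderophores and is stored in neutrophil granules, and Hp encodes haptoglobin, which binds free haemoglobin. Serpina3n encodes a secreted inhibitor of serine proteases, and Cp encodes ceruloplasmin, a copper-carrying ferroxidase. Pla2g2d encodes a secreted phospholipase A2 known from lymphoid tissue and is not a classical acute-phase protein.

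Promoter sequence was matched by symbol in the RefSeq table of the GRCm38.p6 build for 6 of the 7 genes, all but Hp. Of these, 3 are shown, because Saa3, Saa1 and Serpina3n had no overlap between controls and sedentary pain libraries in females and because the stretches touch no exon of the GENCODE M21 annotation. Each runs 5′ to 3′ on the gene's strand from 250 to 31 bases before the annotated start, a length of 220 bases, and capitals mark matches to the C/EBP pattern TTNNGNAA on either strand. Saa3 lies at chr7:46715707-46715926 on the minus strand, Saa1 at chr7:46743011-46743230 on the minus strand, and Serpina3n at chr12:104406458-104406677 on the plus strand.
Saa3: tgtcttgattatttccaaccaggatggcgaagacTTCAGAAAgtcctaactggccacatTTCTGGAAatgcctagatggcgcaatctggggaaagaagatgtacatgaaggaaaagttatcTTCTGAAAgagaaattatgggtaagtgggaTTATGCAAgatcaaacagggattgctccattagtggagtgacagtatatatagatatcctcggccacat
Saa1: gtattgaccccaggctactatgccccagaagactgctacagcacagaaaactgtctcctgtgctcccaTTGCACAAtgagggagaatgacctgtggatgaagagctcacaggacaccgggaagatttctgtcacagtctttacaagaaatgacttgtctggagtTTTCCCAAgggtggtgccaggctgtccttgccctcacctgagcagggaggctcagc
Serpina3n: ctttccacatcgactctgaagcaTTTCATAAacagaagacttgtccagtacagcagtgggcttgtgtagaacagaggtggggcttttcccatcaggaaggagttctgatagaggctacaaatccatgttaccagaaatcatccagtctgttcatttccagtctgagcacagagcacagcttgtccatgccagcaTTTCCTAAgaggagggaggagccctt

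The Saa3 stretch held 4 matches to the C/EBP pattern, and the Saa1 and Serpina3n stretches held 2 each. Lcn2 and both Cp entries held 1 each, and Pla2g2d held 0. Of the 220 bases, 167 in the Lcn2 stretch and 165 in that of Cp entry 2 lie in GENCODE exons. The Lcn2 stretch lies inside the annotated gene, so its matches do not describe sequence before the gene. Of all 32851 promoters in the table, 34.2% held at least 1 match within the same 220 bases. The STAT pattern TTCNNNGAA, found in 6.27% of promoters, and the kappaB consensus, found in 6.34%, matched in none of the members' stretches, so no match overlapped another motif. A match of letters is a description of the stretch and not a binding site, and a pattern that was not matched may lie outside it.

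Total counts per library ran from 17612139 to 34039699. Levels are given as counts scaled to library size (CPM), with library sizes adjusted by the trimmed mean of M-values (TMM) over all 24 libraries, and as mean ± SD over n = 4 libraries. The tissue label was checked with 10 muscle fibre genes, including Acta1, Ckm and Myh4, whose summed level was 119000 to 273300 CPM in every library. The 2 lowest sums, 119000 and 130900 CPM, were those of female sedentary pain replicates 4 and 3, the libraries with the highest Saa3. Mitochondrial genes took 8.22%, 3.85%, 5.86% and 2.75% of the counts in female sedentary pain replicates 1 to 4 and 4.53% in male sedentary pain replicate 1, against 8.59% to 11.2% in the 8 controls. Female active pain replicates 1 and 3 (6.67% and 6.87%) and male active pain replicates 1 and 2 (8.14% and 5.97%) were also below every control. The part of this in the members' levels was not tested. Xist and Ddx3y counts matched the labelled sex in all 24 libraries. Of 10 hepatocyte markers, Cyp3a11 and Hnf4a had no counts in any group, and Ttr and Apoa1 had at most 3 counts in any library. The 10 summed to 5.49 to 177 CPM, with the highest sum in female control replicate 3, 65.4 CPM in female control replicate 4 and 61.8 CPM in female sedentary pain replicate 3. In bulk tissue, fewer cells of a type and less RNA per cell cannot be told apart.

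Saa3 (ENSMUSG00000040026, chromosome 7, 46711998 to 46715700) had 0.607, 1.64, 0 and 1.04 CPM in female control replicates 1 to 4. The 4 female sedentary pain libraries held 5.6, 36, 563 and 1672 CPM, and the female active pain libraries 1.67, 2.83, 15 and 7.54 CPM. Every pain library of the females lay above every female control, and the sedentary pain libraries were spread over more than 2 orders of magnitude, with replicates 3 and 4 far above replicates 1 and 2. Mean levels were 0.822 ± 0.693 CPM in controls, 569 ± 778 CPM in sedentary pain and 6.76 ± 6.06 CPM in active pain. In replicate 4 of the sedentary pain group, 0.202% of all counts came from Saa3.

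In the females, the fitted log2 fold change of Saa3 in sedentary pain against control was 9.41 ± 1.81 (SE). The value in active pain against control was 3.04 ± 1.47 (SE), and in active against sedentary pain it was -6.37 ± 1.56 (SE). The first 2 of these comparisons share their control libraries. The ratio of mean CPM in sedentary pain to control was 18.5 within replicates 1 and 2 and 2150.0 within replicates 3 and 4. This split is shown because the library numbers in the file names were 20 or lower for replicates 1 and 2 and 25 or higher for replicates 3 and 4 in every group, and what those numbers stand for is not given in the sources used here. For active to sedentary pain it was 0.108 and 0.0101, and the ranges overlapped, with 2 of 4 active libraries below every sedentary one. Leaving out sedentary pain replicate 4 brought the active against sedentary log2 fold change to -4.89, and the sedentary pain against control value to 7.93. With 1 surrogate variable in the fit, these 2 values were -0.20 and 1.87. The active pain against control value was 2.28 without active pain replicate 3.

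Male controls had Saa3 counts of 0, 3, 0 and 0. Levels were 24.3, 0.870, 7.64 and 2.88 CPM in male sedentary pain and 13.1, 3.72, 0.308 and 1.31 CPM in male active pain, and every pain library lay above every control. With only 3 counts in the pooled controls, a ratio of pooled counts scaled to library size is given in place of a fitted fold change. That ratio was 333 (exact 95% interval 114 to 1618) for sedentary pain, from 887 counts, and 170 (57.7 to 826) for active pain, from 439 counts. Replicate 1 gave 601 of the sedentary and 304 of the active pain counts, and without it the ratios were 140.2 (47.5 to 684) and 67.5 (22.6 to 331). All 3 control counts came from male control replicate 2. These intervals cover counting error only. By mean CPM the groups ranked female sedentary pain, male sedentary pain, female active pain, male active pain, female control and male control. The 3 groups after the first (8.92 ± 10.6, 6.76 ± 6.06 and 4.61 ± 5.84 CPM) overlapped and differed by less than their spread.

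Saa1 (ENSMUSG00000074115, chromosome 7, 46740497 to 46742980) was scarce, with 2 to 5 counts per library in female controls and 0 to 2 in male controls. Its levels in female sedentary pain were 0.681, 4.15, 1.04 and 1.34 CPM, against 0.130, 0.168, 0.195 and 0.0611 CPM in the controls. Female active pain libraries held 0.539, 1.20, 3.20 and 0.486 CPM. All 8 female pain libraries were above all 4 controls, and the 2 pain groups overlapped in part, with 2 of 4 active libraries below every sedentary one. Log2 fold changes against control were 3.63 ± 0.81 (SE) in sedentary and 3.28 ± 0.81 (SE) in active females. They were 2.87 without sedentary pain replicate 2 and 2.40 without active pain replicate 3. In males, Saa1 reached 8.72, 0.937, 0.803 and 0 CPM in sedentary pain and 2.58, 3.48, 0.445 and 0.277 CPM in active pain. The pooled male controls held 4 counts, which gave a ratio of 74.1 (exact 95% interval 28.6 to 274) for sedentary pain and 48.4 (18.6 to 180) for active pain. Male sedentary replicate 1 carried 216 of the 263 sedentary pain counts, and replicate 4 carried none. Without replicate 1 the sedentary pain ratio was 17.3 (6.32 to 66.0), and without active pain replicate 2 the active pain ratio was 30.7 (11.5 to 115).

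Saa1 and its neighbour Saa2 share sequence, and 8.96% of the 100-base windows of Saa1 exons also occur in Saa2, so reads could have been split between them. Saa2 had at most 9 counts in any female library and at most 57 in any male library. Saa3 shares no 100-base window with another gene. The 2 serum amyloid genes did not keep a fixed proportion. In female sedentary pain, Saa3 counts were 8.22, 8.68, 542 and 1245 times those of Saa1 in replicates 1 to 4. In female active pain the count ratio was 2.35 to 15.5, and in male active pain 0.692 to 5.07. Both high ratios belong to the libraries with the highest Saa3, whose Saa1 was no higher than in replicate 2.

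Lcn2 (ENSMUSG00000026822, chromosome 2, 32384633 to 32388252) had 0.823, 0.799, 4.57 and 3.36 CPM in female controls and 2.76, 19.3, 19.8 and 35.9 CPM in female sedentary pain. Of the sedentary pain libraries, 3 of 4 lay above every control, and replicate 1 lay among them. Female active pain held 2.35, 13.95, 12.3 and 2.1 CPM, with 2 of 4 above every control. The log2 fold change of Lcn2 was 2.99 ± 0.88 (SE) for sedentary pain and 1.67 ± 0.85 (SE) for active pain. Male controls had 0.341, 0.944, 1.39 and 0.283 CPM. Male sedentary pain had 41.8, 2.11, 3.08 and 1.57 CPM and male active pain 10.04, 16.2, 4.41 and 1.90 CPM, all 8 above all controls. The male log2 fold changes were 4.05 ± 1.18 (SE) and 3.45 ± 1.16 (SE), but without sedentary pain replicate 1 the former was 1.62. Ranked by mean CPM, female sedentary pain (19.4 ± 13.5) and male sedentary pain (12.1 ± 19.8) led, followed by male active (8.13 ± 6.35) and female active pain (7.66 ± 6.32), and each neighbouring pair overlapped.

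Hp (ENSMUSG00000031722, chromosome 8, 109575128 to 109579172) was present in every library. Female controls held 19.8, 8.41, 74.2 and 67.3 CPM, so replicates 3 and 4 were above replicates 1 and 2 before any pain model. Female sedentary pain held 25.5, 320, 110.3 and 104 CPM and female active pain 89.1, 55.7, 72.2 and 49.6 CPM, and both groups overlapped the controls. The log2 fold changes of Hp were 1.69 ± 0.73 (SE) and 0.64 ± 0.71 (SE), and the former was 0.91 without sedentary pain replicate 2. Within replicates 1 and 2 the ratio of mean CPM in sedentary pain to control was 12.2, and within replicates 3 and 4 it was 1.51. The ratio of active pain to control was 5.12 and 0.860, so that within replicates 3 and 4 the active pain mean was below that of the controls. Male controls held 12.6, 44.3, 62.5 and 5.91 CPM, male sedentary pain 601, 22.3, 79.8 and 94.9 CPM, and male active pain 207, 180, 169 and 29.2 CPM. In both male pain groups 3 of 4 libraries lay above every control, with log2 fold changes of 2.69 ± 1.03 (SE) and 2.23 ± 1.01 (SE). The former was 1.09 without sedentary pain replicate 1. Mean levels ranked male sedentary (199 ± 269), male active (146 ± 79.7) and female sedentary pain (140.0 ± 126), then female active pain (66.6 ± 17.8), female control (42.4 ± 33.2) and male control (31.3 ± 26.7), with overlap at every step.

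Serpina3n (ENSMUSG00000021091, chromosome 12, 104406729 to 104414329) was above its controls in all 4 pain groups. Its levels were 4.12, 4.50, 16.6 and 11.2 CPM in female controls, 28.0, 53.9, 45.0 and 35.1 CPM in female sedentary pain and 21.9, 35.1, 55.8 and 22.8 CPM in female active pain. Male controls held 2.93, 9.37, 8.41 and 1.57 CPM, male sedentary pain 94.5, 21.2, 23.4 and 21.2 CPM, and male active pain 52.1, 73.9, 42.6 and 11.7 CPM. In each sex all 8 pain libraries lay above all 4 controls. Log2 fold changes of Serpina3n against control were 2.13 ± 0.46 and 1.89 ± 0.46 in sedentary and active females, and 2.87 ± 0.75 and 3.02 ± 0.75 in sedentary and active males (each ± SE). The sedentary male value was 2.00 without replicate 1 of that group. The active against sedentary values were -0.23 ± 0.44 (SE) in females and 0.16 ± 0.69 (SE) in males, each smaller than its error. The 4 pain groups had means from 33.9 to 45.1 CPM and could not be ordered beyond their spread, and the controls had 9.10 ± 5.96 CPM in females and 5.57 ± 3.89 CPM in males. Serpina3n shares 0.204% of its 100-base windows with Serpina3e-ps and 0.0509% with Serpina3g.

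Cp (ENSMUSG00000003617, chromosome 3, 19957054 to 20009145) followed the replicate numbers more than the groups in females. Female controls held 10.7, 10.8, 32.2 and 26.7 CPM and female sedentary pain 11.2, 11.97, 53.4 and 39.5 CPM, with replicates 3 and 4 high in both. Female active pain held 10.5, 10.7, 16.6 and 15.2 CPM. The sedentary to control ratio of mean CPM was 1.08 within replicates 1 and 2 and 1.58 within replicates 3 and 4, and the active to control ratio was 0.987 and 0.540. Males held 8.74, 12.7, 15.1 and 10.7 CPM as controls, 17.3, 14.3, 15.04 and 25.4 CPM in sedentary pain and 15.6, 14.1, 13.2 and 16.6 CPM in active pain. Log2 fold changes of Cp against control were 0.51 ± 0.52 and -0.60 ± 0.52 in sedentary and active females, and 0.63 ± 0.21 and 0.34 ± 0.21 in sedentary and active males (each ± SE). Cp overlaps Hps3 on the opposite strand, and whether counting used strand is not given in the sources used here, so reads of the 2 genes may have been mixed.

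Pla2g2d (ENSMUSG00000041202, chromosome 4, 138775735 to 138782046) was low in all groups and was the only member whose log2 fold change against control lay below 0 in both male comparisons. It had 0.693, 0.673, 2.11 and 2.02 CPM in female controls, 0.908, 0.234, 3.70 and 1.59 CPM in female sedentary pain, and 1.47, 0.424, 0.424 and 1.28 CPM in female active pain. Male controls had 0.955, 1.78, 2.85 and 1.89 CPM, male sedentary pain 0.444, 0.636, 0.845 and 2.48 CPM, and male active pain 0.517, 1.04, 0.992 and 2.57 CPM. All groups overlapped. The largest difference from control in size was -0.74 ± 0.58 (SE) on the log2 scale, in male sedentary pain, and it was -1.53 without replicate 4 of that group.

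**Figure D1:**
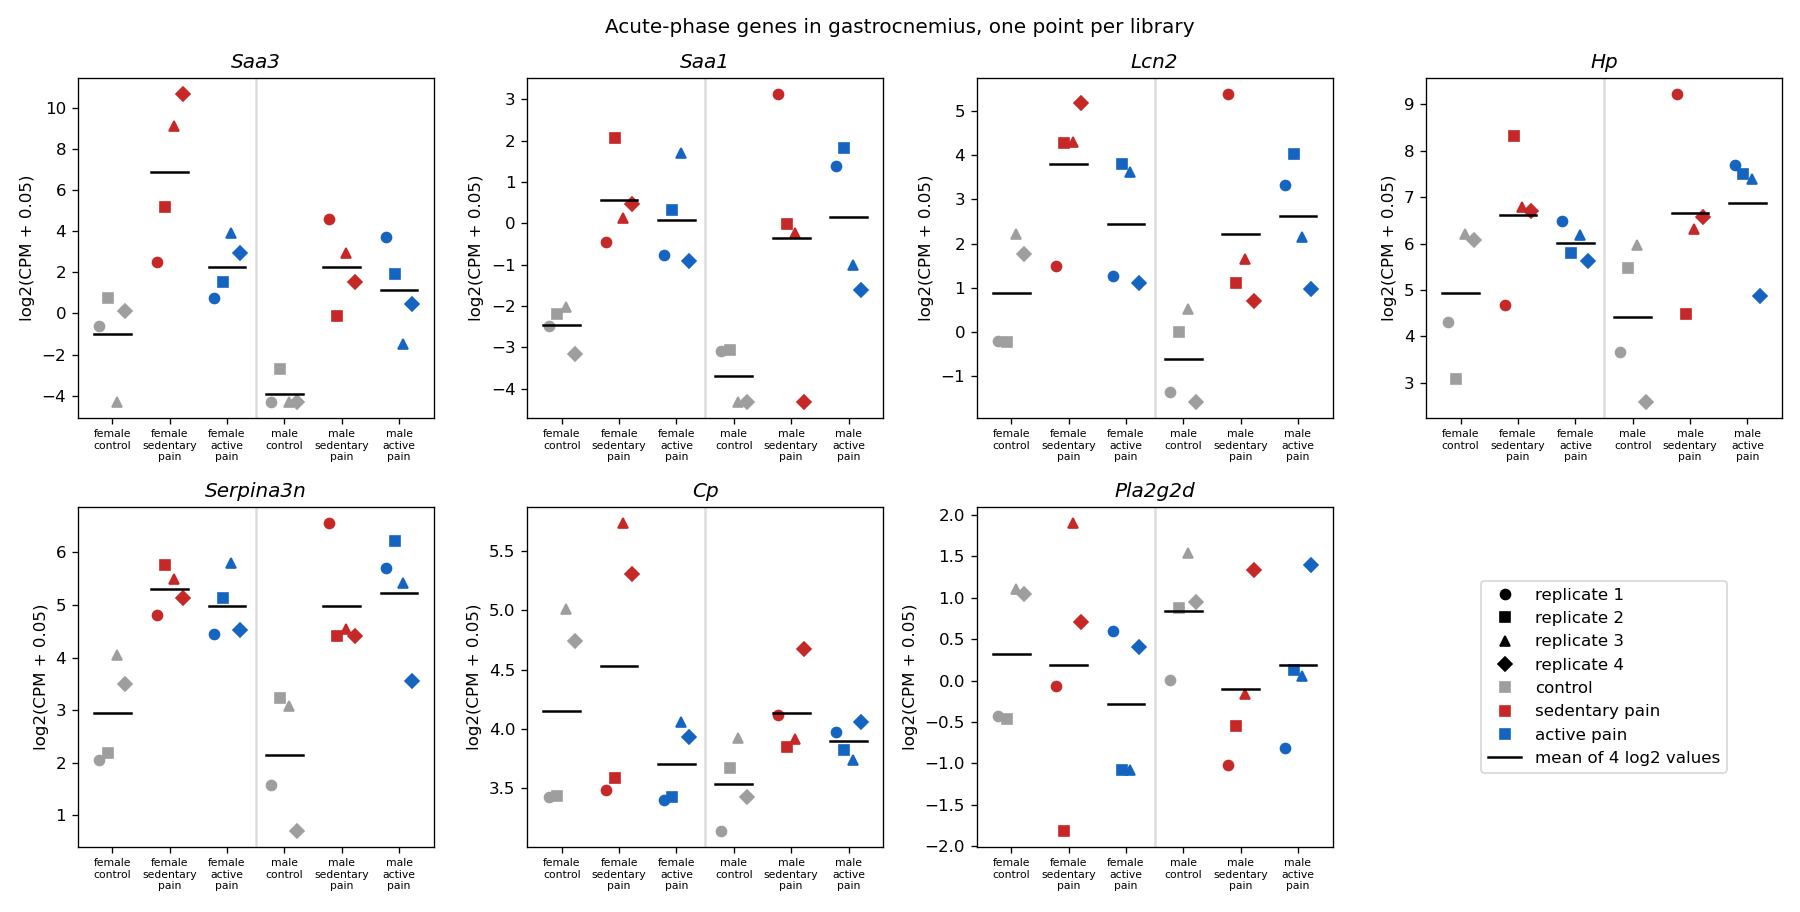
Level of each gene in each library, as log2(CPM + 0.05) on the vertical axis, by group on the horizontal axis; symbols give the replicate number and black bars the mean of the 4 log2 values. Libraries without a count sit at the bottom of the Saa3 and Saa1 panels; Saa3 reaches 1672 CPM in female sedentary pain replicate 4, and male sedentary pain replicate 1 is the highest male library for Saa3, Saa1, Lcn2, Hp and Serpina3n.

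Because counts grow with gene length, levels of different genes were compared per kilobase of annotated exon. In female controls the mean level per kilobase was highest for Hp (26.4 ± 20.6 CPM per kb), then Serpina3n (4.41 ± 2.89), Cp (2.1 ± 1.15), Lcn2 (0.911 ± 0.720), Pla2g2d (0.612 ± 0.356), Saa3 (0.315 ± 0.266) and Saa1 (0.0560 ± 0.0235). In female sedentary pain Saa3 had the highest mean level per kilobase, at 218 ± 299 CPM per kb against 87.2 ± 78.5 for Hp, but the 2 ranges overlapped. Saa3 counts exceeded Hp counts in female sedentary replicates 3 and 4 only, by ratios of 5.10 and 16.0. In the other 22 libraries the ratio of Saa3 to Hp counts was at most 0.220. In every male group Hp had the highest mean level per kilobase, up to 124 ± 168 CPM per kb in sedentary pain, where Saa3 had 3.42 ± 4.08.

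**Figure D2:**
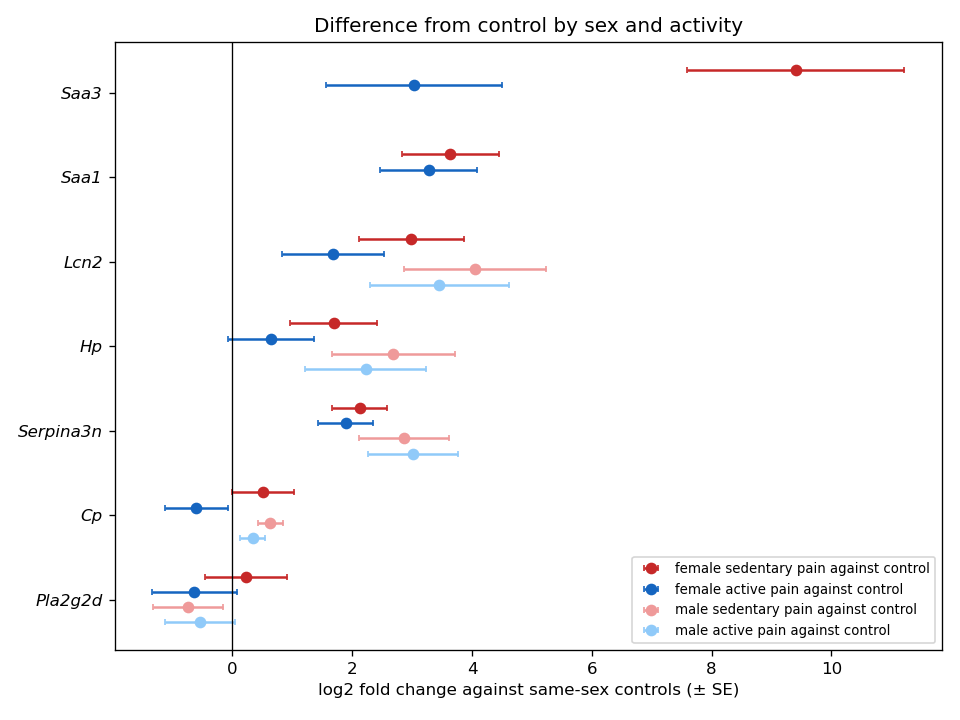
Fitted log2 fold change against same-sex controls on the horizontal axis, with bars of ± 1 SE, for each gene and pain group. Saa3 and Saa1 are not drawn for males, whose controls held 3 and 4 counts in all; the value for Saa3 in female sedentary pain, 9.41, is the largest drawn, and the values of Cp and Pla2g2d lie between -0.74 and 0.63.

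A gene was called when its p-value from edgeR's quasi-likelihood F test, adjusted by the Benjamini-Hochberg procedure over all genes tested, was under 0.05. In female sedentary pain against control, 4 of the 7 members were called, all higher. Of the 14511 genes tested, 33.5% were called, and 19.6% were called as higher. Since the members were chosen on these libraries, their counts here and in the comparisons that follow are no support for a difference. Higher levels with no overlap between the groups were seen for 3 members (Saa1, Saa3 and Serpina3n), against 15.3% of all genes. The count of calls was 3 without sedentary pain replicate 4 or female control replicate 1 or 2, where Lcn2 left it with log2 fold changes of 2.53, 2.73 and 2.73. With 1 surrogate variable in the fit the count of calls was 0, and 61 of the 14511 genes were called, against 4867 as reported. The members' median log2 fold change was 2.13, and that of all genes tested was -0.02.

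In female active against sedentary pain, 1 member was called, as lower, while 11.9% of all genes were called and 9.41% were called as lower. The count was 0 without active pain replicate 1, 2 or 4 and without sedentary pain replicate 3 or 4, where the log2 fold changes of the member concerned, Saa3, were -6.08, -6.15, -6.46, -6.40 and -4.89. No member's groups were free of overlap here, against 11.8% of all genes. All 7 members had a fitted value below 0, with a median of -1.05, against 0.01 over all genes. With 1 surrogate variable in the fit, 6 of the 7 were above 0, from 0.08 for Saa1 to 0.98 for Lcn2, and Saa1 was 0.40 without sedentary pain replicate 2. In female active pain against control, edgeR called 0 members and 0% of all genes, with 2 members and 1020 genes under an unadjusted p of 0.05, and DESeq2 called 2 members and 124 genes. Saa1, Saa3 and Serpina3n were higher there with no overlap, against 3.60% of all genes.

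In males, edgeR called 0 members and 0% of all 14404 genes in each of the 3 comparisons. In sedentary pain against control, 6 members and 1273 genes had an unadjusted p under 0.05, and DESeq2 called 4 members and 270 genes. For active pain against control these counts were 5 members and 1045 genes, and DESeq2 called 2 members and 127 genes. Members that were higher with no overlap numbered 3 in sedentary pain (Saa3, Lcn2 and Serpina3n), against 3.95% of all genes, and 4 in active pain (these and Saa1), against 6.34%. The members' median log2 fold change was 2.87 and 3.02, against -0.01 and 0.00 over all genes. In active against sedentary males, no member and 121 genes had an unadjusted p under 0.05, and DESeq2 called 0 genes.

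The difference of each contrast between the sexes was fitted in all 24 libraries. edgeR called 0 members and 0% of all 15103 genes in each of the 3 sex differences, with 0, 0 and 1 member under an unadjusted p of 0.05 for sedentary pain against control, active pain against control and active against sedentary pain. Over all genes, 1446, 307 and 2224 had an unadjusted p under 0.05 and DESeq2 called 15, 3 and 111 genes. Leaving out 1 library changed the edgeR counts. Without male sedentary pain replicate 1, 2174 of 15369 genes were called in active against sedentary pain, and without female sedentary pain replicate 1, 622 of 15404 there and 18 in sedentary pain against control. Members and genes of the lists described further on made up 25 and 6 of these calls. The member under that threshold was Saa3 in active against sedentary pain, where the female minus male difference was -5.43 ± 1.80 (SE) on the log2 scale. In male against female controls, no member was called or free of overlap, 2.83% of all genes were called and 22.3% were free of overlap, and DESeq2 called 1 member and 720 genes.

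Summed levels of cell type markers are given beside the members' levels. The summed level of 11 neutrophil markers was 1.30 to 9.17 CPM in female controls, 21.5 to 263 CPM in female sedentary pain and 6.23 to 115 CPM in female active pain. It was 0.699 to 9.40 CPM in male controls, 2.75 to 301 CPM in male sedentary pain and 3.68 to 79.1 CPM in male active pain. The 2 highest sums were in male sedentary replicate 1 (301 CPM) and female sedentary replicate 2 (263 CPM), the same libraries with the 2 highest levels of Hp and of Saa1. The other 3 male sedentary libraries had neutrophil sums of 2.75 to 2.98 CPM and held 21.2 to 23.4 CPM of Serpina3n. Of the neutrophil markers, Mpo had at most 3 counts per library in 4 of the groups.

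The summed level of 12 macrophage and monocyte markers was 113 to 249 CPM in female controls and 527, 838, 4341 and 6286 CPM in female sedentary pain replicates 1 to 4. It was 299 to 569 CPM in female active pain, 75.3 to 169 CPM in male controls, 163 to 910 CPM in male sedentary pain and 264 to 589 CPM in male active pain. The order of the libraries by this sum was that of their Saa3 in female sedentary pain but not in either male pain group. All 12 markers were called higher in female sedentary pain against control, and 10 of 12 were called lower in female active against sedentary pain. Adipocyte markers, 8 in number, summed to 444, 283, 5865 and 2819 CPM in female controls and to 138 to 751 CPM in all other groups. Female controls 3 and 4, which had the high sums, were also the controls with the highest Hp, Lcn2, Serpina3n and Cp. Fibroblast markers (8) summed to 566 to 1661 CPM and endothelial markers (6) to 143 to 221 CPM. Lymphocyte and lymph node markers (12) summed to 0.650 to 39.4 CPM, highest in female sedentary replicate 4, and the lymph node marker Ccl21a had no counts in any group. The part of these cells in the members' levels was not tested.

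**Figure D3:**
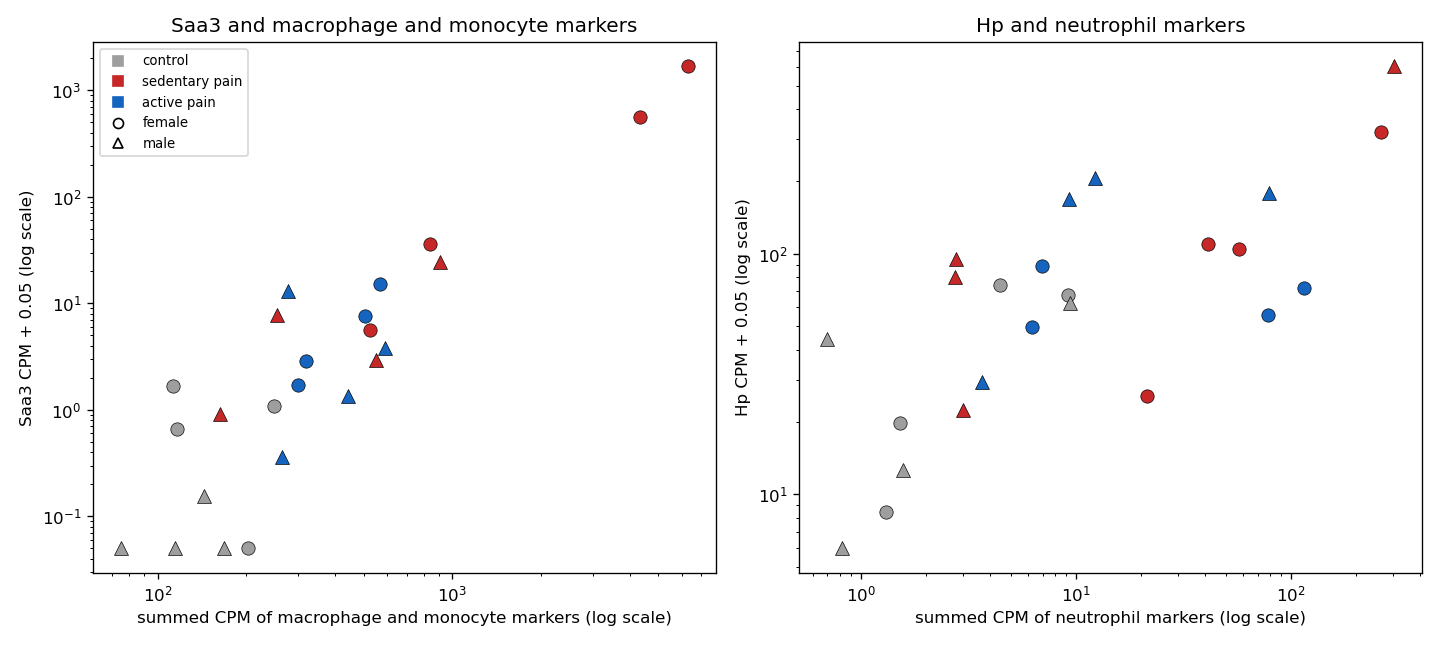
Left, Saa3 level (CPM + 0.05) against the summed CPM of 12 macrophage and monocyte markers; right, Hp level (CPM + 0.05) against the summed CPM of 11 neutrophil markers; both axes are logarithmic and each point is 1 library. Female sedentary pain replicates 3 and 4 stand apart at the upper right of the left panel, at 4341 and 6286 CPM of markers, and male sedentary replicate 1 with female sedentary replicate 2 at the upper right of the right panel.

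The genes around the members were taken from 7 lists with 110 genes, of which 68 were tested in females and 66 in males. The lists were chosen with earlier results of these data known. Their counts and p-values are therefore a description and no support for an enrichment. In female sedentary pain against control, 38 were called higher, 6 lower and 24 were not called, with a median log2 fold change of 1.22. These 44 calls went to 29 without sedentary pain replicate 4. With 1 surrogate variable in the fit they went to 0, where 61 of all 14511 genes were called. Over all genes tested, 33.5% were called and 19.6% were called higher. Among 22 other acute-phase proteins, 8 were tested, of which 6 rose and Orm1, an acid glycoprotein gene, fell (log2 fold change -3.67 ± 1.06, SE). Timp1, an inhibitor of matrix metalloproteinases, rose from 0.804 ± 0.319 to 60.8 ± 43.7 CPM (log2 fold change 6.22 ± 0.97, SE, edgeR adjusted p = 0.0026). Ptx3, a long pentraxin, rose by 2.06 ± 0.43 (SE) and Serping1, the inhibitor of complement C1, by 1.13 ± 0.32 (SE) on the log2 scale. Serping1 was not called without sedentary pain replicate 4 (0.97) or female control replicate 1 (1.13) or 2 (1.13). Crp, the short pentraxin used clinically as an acute-phase marker, had at most 3 counts in any library, and Saa4 had at most 1. Within the Serpina3 cluster, 2 of 10 genes were tested and Serpina3g was called higher. Neither of the 2 secreted phospholipases tested out of 10 was called, and Pla2g2a, the best known of them in inflammation, had no counts.

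Of 14 inducing cytokines, 6 were tested and 4 rose: Il1b, Osm, Tnf and Clcf1. Il1b, Osm and Tnf, as well as Il1rn and Fpr1 named below, had at most 7 counts in any female control. They passed the filter for low counts only through the pain libraries, so the counts of rises among tested genes are a description. Il1b rose from 0 to 7 counts per library to 86 to 1028, Osm from 0 to 2 counts to 7 to 269, and Tnf from 2 to 4 counts to 10 to 704. Il6, the main inducer of the liver response, was under the filter for low counts in the fits of each sex. It is given here because of that role, with its values known. It had no counts in female controls, 8 to 33 in female sedentary pain and 0 to 5 in female active pain. In males it had 0 to 3 counts in controls, 0 to 83 in sedentary pain and 1 to 15 in active pain. Of 15 cytokine receptors and kinases, 6 rose and Lifr fell (-0.64 ± 0.22, SE). Il1rn, the natural blocker of the interleukin-1 receptor, rose from 1 to 5 counts to 109 to 1125, Tnfrsf1b by 3.94 ± 0.67 (SE) and Il17ra by 2.70 ± 0.52 (SE) on the log2 scale.

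Of 19 transcription factors and feedback genes, 14 rose and Fkbp5 fell (-1.06 ± 0.31, SE). Socs3, the feedback inhibitor of interleukin-6 signalling, rose from 2.26 ± 0.32 to 35.6 ± 18.5 CPM (log2 fold change 3.95 ± 0.61, SE, edgeR adjusted p = 0.0026). Bcl3 and Nfkbiz, which encode atypical members of the IκB family of NF-κB regulators, rose by 3.69 ± 0.67 (SE) and 2.84 ± 0.66 (SE). Cebpb and Stat3 rose by 1.71 ± 0.49 (SE) and 1.54 ± 0.28 (SE). They are named, with their values known, because their families bind the patterns searched above. Of the same family as Cebpb, Cebpd (0.84 ± 0.72, SE) and Cebpa (-1.41 ± 0.75, SE) were not called. Among 20 receptors and partners of the members, 16 were tested, 7 rose and 3 fell. Fpr2, a receptor for serum amyloid A, rose from 0.124 ± 0.166 to 54.0 ± 65.1 CPM, Fpr1 from 0.0851 ± 0.105 to 35.0 ± 39.2 CPM, and Tlr2 from 0.972 ± 0.602 to 29.7 ± 23.5 CPM. Slc40a1, the iron exporter ferroportin that works with ceruloplasmin, fell from 31.2 ± 6.44 to 14.6 ± 6.04 CPM (log2 fold change -1.12 ± 0.31, SE), and it was not called without female control replicate 4 (-0.98). The other 2 that fell were Heph, a ferroxidase related to ceruloplasmin (-2.88 ± 0.80, SE), and Cd36 (-1.51 ± 0.41, SE). In the same comparison all 12 macrophage and monocyte markers, 5 of the 8 tested neutrophil markers (median log2 fold change 4.98), all 3 tested lymphocyte markers and 2 of 8 fibroblast markers were called higher, and 2 of 6 endothelial and 6 of 8 adipocyte markers were called lower, the latter with a median log2 fold change of -2.996. Female controls 3 and 4 held the high adipocyte sums given above, and the part of these cells in the rises and falls was not tested.

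In female active against sedentary pain, 21 of the 68 tested genes were called, all lower, with a median log2 fold change of -0.91, against 11.9% of all genes called and 9.41% called lower. Of the 12 macrophage and monocyte markers, 10 were called lower in the same comparison, with a median of -2.61, and their part was not tested. Serpina3g, a protease inhibitor close to Serpina3n, was the gene that met the naming rule there. It fell from 40.4 ± 49.3 to 0.251 ± 0.247 CPM (log2 fold change -7.19 ± 1.68, SE, edgeR adjusted p = 0.0328; -6.20 without sedentary pain replicate 4 and -8.07 without active pain replicate 4, neither called), whereas Serpina3n held 40.5 ± 11.3 and 33.9 ± 15.8 CPM. The 21 calls fell to 0 without active pain replicate 1, 2 or 4 or sedentary pain replicate 3 or 4, and were 32 without sedentary pain replicate 1. No gene of the lists was called by edgeR in female active pain against control or in the 3 male comparisons, with 14, 24, 15 and 1 genes under an unadjusted p of 0.05 in female active pain against control, male sedentary pain against control, male active pain against control and male active against sedentary pain. DESeq2 called 4, 5, 2 and 0. In male against female controls, 2 of 70 tested list genes were called, a share near the 2.83% of all genes called. Pla2g5, a secreted phospholipase, was lower (4.40 ± 1.36 against 12.8 ± 4.08 CPM; log2 fold change -1.54 ± 0.27, SE) and Il1r1, the interleukin-1 receptor, was higher (9.07 ± 0.82 against 4.38 ± 0.72 CPM; 1.05 ± 0.23, SE). Il1r1 was not called without female control replicate 3 (1.02) or male control replicate 2 (1.0002).

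**Figure D4:**
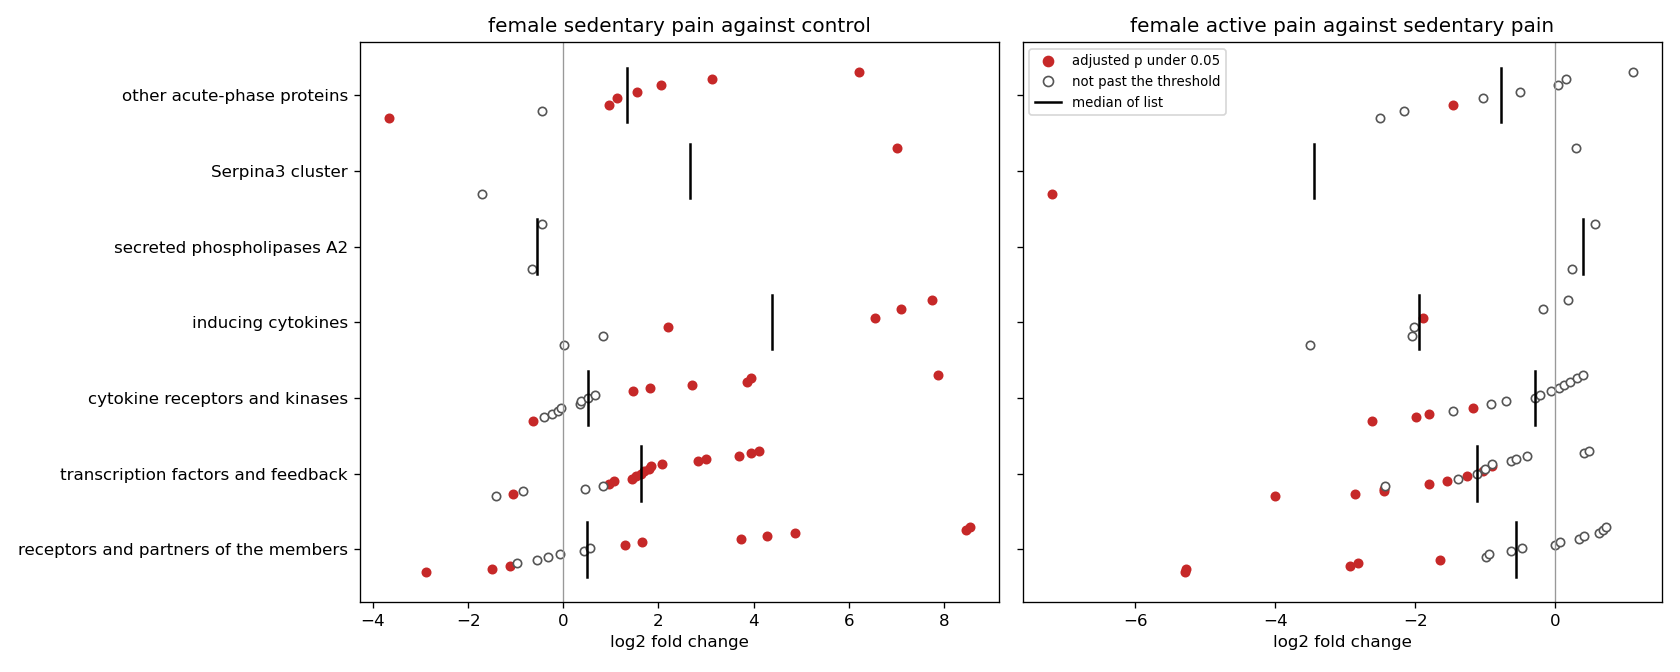
Log2 fold change of each tested gene of the 7 lists on the horizontal axis, by list on the vertical axis, in female sedentary pain against control (left) and female active against sedentary pain (right). Filled points passed an adjusted p of 0.05 and black bars are list medians; 38 filled points lie above 0 and 6 below 0 on the left, and all 21 lie below 0 on the right.

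The genes whose level was most like each member's over the 24 libraries were ranked by Spearman's rho of CPM among 11145 genes, as a description of libraries that share groups and cell content. For Saa3 these were Aif1 (rho 0.93), Zbp1 (0.93) and Slc15a3 (0.93), and Aif1 is a marker of macrophages. Saa1 was most like Timp1 (0.91), Otulin (0.89) and Serpinb1a (0.88), and Lcn2 most like Nucb2 (0.92), Exosc8 (0.92) and Ralb (0.91). Hp was nearest Rarres2 (0.88), the gene of chemerin, with Necap2 (0.87) and Procr (0.86). The levels of Serpina3n were followed by Ccl9 (0.93) and by the metallothionein genes Mt1 (0.92) and Mt2 (0.92). For Cp the list was Ifngr1 (0.85), Cd302 (0.82) and Shtn1 (0.81), and for Pla2g2d it was Nid1 (0.79), Scara5 (0.78) and Arsb (0.78). No gene was on 2 of the 7 lists of 3.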

How the data were processed

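RNA of 24 gastrocnemius samples was sequenced. The authors deposited raw read counts per Ensembl gene, 1 whole number per gene and library; HISAT2 2.1.0, Salmon 0.9.1, featureCounts and DESeq2 1.24.0 and the builds mm10 and GRCm38.p6 are named in the submitters' processing notes, without their roles. Symbols were found for 54409 genes, and positions and exon lengths came from GENCODE M21 (GRCm38). Genes were filtered with filterByExpr (minimum count 10), scaled by TMM and tested with edgeR 4.0.16 (R 4.3.3), two-sided, in the 12 libraries of each sex; sex differences and controls of both sexes used all 24. In simulated counts for female sedentary pain against control (14405 genes), 79% of changes of 2 and 93% of changes of 3 on the log2 scale were called, with 5 false calls. Each gene was drawn independently there, without variation shared by the genes of a library, so these rates may not carry over to the data. The members and gene lists were chosen with earlier results of these data known. Named list genes were up to 3 per list and direction by size of called change, with no overlap between groups and a log2 CPM averaging 0 or more; other list genes, such as Orm1, Clcf1, Lifr, Fkbp5, Heph, Cd36, Il6, Cebpb and Stat3, were named after their values were seen. Alternatives were RLE scaling, DESeq2 1.42.0, no low-count filter, only the groups compared, the replicate number or the library-number classes (20 or lower, 25 or higher) as a term, 1 surrogate variable (sva 3.50.0) and each library left out. Figures used Python 3.11.15 and matplotlib 3.10.9.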

Additional observations from a re-analysis of the deposited data

Results flagged for a closer look

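Of 42 groups of 4 libraries, 1 for each member and group, 5 held a library whose gap to the nearest other exceeded the 95% critical value of Dixon's test; chance gives about 1 in 20 for groups not chosen on their values, and these genes were, so the gaps are a description. In 4 of the 5 this was male sedentary pain replicate 1, with 8.72 CPM of Saa1 (next 0.937), 41.8 CPM of Lcn2 (next 3.08), 601 CPM of Hp (next 94.9) and 94.5 CPM of Serpina3n (next 23.4). The same library had the highest neutrophil marker sum, 301 CPM, and the part of those cells was not tested. The other was Saa3 in male control replicate 2, at 0.105 CPM from 3 counts, where the other male controls had none, so that any count in 1 library gives the greatest possible gap.

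For Cp, every female active pain library lay below the mean of its controls (ratio of means 0.660; 0.987 within replicates 1 and 2 and 0.540 within replicates 3 and 4) and every male active pain library above the mean of its controls (ratio 1.26). The female control mean rests on replicates 3 and 4, with 32.2 and 26.7 CPM against 10.7 and 10.8 CPM in replicates 1 and 2. The fitted sex difference was -0.94 ± 0.59 (SE) on the log2 scale, and edgeR called 0 of all 15103 genes in that contrast. The pattern was picked from these same values, so the fitted difference is a description.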

How the results depend on the processing

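With 1 surrogate variable, 0 members and 0 list genes were called in female sedentary pain against control (4 and 44 as reported) and 0 and 0 in female active against sedentary pain (1 and 21 as reported), and Serping1 turned from 1.13 to -0.0021; the Saa3 log2 fold changes became 1.87 and -0.20. Calls over all genes went from 4867 to 61 and from 1730 to 0. The cause was not tested. Leaving out each library gave 3 to 5 members and 29 to 48 list genes in female sedentary pain against control (29 without sedentary pain replicate 4) and 0 to 1 members and 0 to 32 list genes in female active against sedentary pain. That comparison had 0 members and 1 list gene with no low-count filter (174 of all 26069 genes), 0 and 0 with only the 2 groups compared (0 of 14162), and 2 members with the library-number term (2745 of 14511), which added Cp.

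DESeq2 called 2 members and 4 list genes in female active pain against control, 4 and 5 in male sedentary pain against control and 2 and 2 in male active pain against control, where edgeR called 0, as well as 2 members or list genes over the 3 sex differences and 1 member between the controls. The sex differences held 0 to 25 such calls when each library was left out, 25 without male sedentary pain replicate 1 and 6 without female sedentary pain replicate 1. Of 1005 values of members' log2 fold changes under the alternatives, 982 lay within 1 SD between libraries (taken from the SE) of the reported value, 23 lay further away, and 26 changed sign: 15 in active against sedentary males, 7 in active against sedentary females, 3 in female sedentary pain against control and 1 between the controls. None of these was a called value. In males Saa1 ran to 1.52, Lcn2 to 1.84 and Hp to 1.14 without sedentary pain replicate 1, and in female sedentary pain against control Cp was -1.34 and Pla2g2d -1.06 with 1 surrogate variable. Of 381 such values of named list genes, 350 kept their direction and their call, 30 lost the call and 1 changed sign.

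Same-numbered libraries did not deviate together throughout (residual correlation 0.109 on average in females, from -0.320 to 0.415, and 0.0131 in males), so the numbers were not taken as pairs. With the replicate block, 4 members and 38 list genes were called in female sedentary pain against control and 1 and 25 in female active against sedentary pain (3739 and 1629 of all genes); other counts stayed at 0. Depth limits Saa1 and Saa3 in controls, where 0 to 5 and 0 to 39 counts per library were found.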
